A study of Mus musculus with 38 samples.

Results

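Small nucleolar RNAs (snoRNAs), small Cajal body RNAs (scaRNAs), Y RNAs, their non-coding host genes and the RNA components of RNase MRP and RNase P were followed across mouse CD8 T cell clones. The members were all probe sets whose annotated symbol starts with Snora, Snord, Scarna, Snhg or Rny, plus Gas5, Rmrp and Rpph1. This gave 117 of the 23410 probe sets with a gene name, and 95 of the 117 held distinct values, since some probe sets carried identical values on every array. By name, 66 probe sets were box C/D snoRNAs (Snord), 31 were box H/ACA snoRNAs (Snora), 4 were scaRNAs, 8 were Snhg host transcripts, 4 were Gas5 and 2 were Y RNAs, with 1 each for Rmrp and Rpph1. Of the 117, 76 were annotated to 1 symbol and 41 to several, which are named here with all their symbols.

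The 38 arrays came from 5 CD8 T cell clones in 2 states. Activated cells had been kept for 14 hours on plates coated with an anti-CD3 antibody at 0.5 ug/ml, and dormant cells were resting. Clones sAg1 and sAg3 carry the phenotype CD8IL13+ in the labels and belong to the CD8γ13 clones of the study design, 8uvmo-2 and 8uvmo-3 are its IL13-negative Tc1 clones, and CD8bm1 is its alloreactive conventional CD8 clone. There were 4 arrays per clone and state, except 3 each for dormant sAg1 and dormant sAg3, so 20 activated and 18 dormant arrays in all. Each phenotype rests on 2 clones and the alloreactive group on 1, and nothing in the labels tells separate cultures from repeat arrays of 1 culture, so p-values over arrays measure the spread between these arrays. Values are deposited log2 signals. A level of 7 was taken as near background, with no background measured. Of markers for other cell types, all 4 measured B cell genes and both erythroid genes were below 7 in every group, as were 3 of 5 macrophage genes and 1 of 4 stromal genes. Group means of the macrophage genes ran from 4.59 to 10.33, of the stromal genes from 5.54 to 8.03 and of the T cell genes from 5.59 to 13.57, and all 8 measured T cell genes reached 7 in at least 1 group. The first and second arrays of activated 8uvmo-3 stood apart from each other in small RNAs, as described further on, and several values that rest on them are also given without both.

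SnoRNAs guide chemical modification and cleavage of ribosomal RNA in the nucleolus. Box C/D RNAs direct ribose methylation by fibrillarin, box H/ACA RNAs direct pseudouridylation by dyskerin, and scaRNAs do the same for spliceosomal RNAs in Cajal bodies. In mammals most are cut from introns of host genes, many of which encode ribosomal proteins, while the Snhg genes and Gas5 are hosts whose spliced product encodes no known essential protein. Y RNAs are short RNA polymerase III transcripts bound by the Ro60 and La (Ssb) proteins. T cells enlarge their nucleoli and make more ribosomes when their receptor is engaged. An array read from total RNA does not separate a mature small RNA from the intron or precursor that contains it. In cultures measured in bulk, fewer cells with a transcript and less of it per cell cannot be told apart.

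Many snoRNA host genes, Gas5 among them, start with a run of pyrimidines after a first cytosine, a sequence that ties translation of the spliced RNA to growth signals. The starts of the Gas5 and Snhg genes on the array are shown because these hosts are compared with their small RNAs further on. The windows are from RefSeq on GRCm38.p6, run 5′ to 3′ on the gene's strand and hold 25 bases before and 25 bases from each annotated start. Capitals mark any C followed by at least 4 further C or T, searched on the gene's strand only.
Gas5, chr1:161034576-161034625 (plus strand): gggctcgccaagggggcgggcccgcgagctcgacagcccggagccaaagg
Gas5, chr1:161035141-161035190 (plus strand): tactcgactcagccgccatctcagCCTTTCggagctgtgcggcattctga
Snhg11, chr2:158375688-158375737 (plus strand): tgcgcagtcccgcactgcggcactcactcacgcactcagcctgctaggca
Snhg15, chr11:6528736-6528785 (minus strand): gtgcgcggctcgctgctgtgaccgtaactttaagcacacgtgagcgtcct
Snhg16, chr11:116671635-116671684 (plus strand): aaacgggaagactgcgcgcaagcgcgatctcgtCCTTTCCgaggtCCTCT
Snhg17, chr2:158361485-158361534 (minus strand): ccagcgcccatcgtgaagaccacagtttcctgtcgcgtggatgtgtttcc
Snhg17, chr2:158361498-158361547 (minus strand): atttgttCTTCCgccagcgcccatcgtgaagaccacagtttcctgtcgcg
Snhg5, chr9:88522873-88522922 (minus strand): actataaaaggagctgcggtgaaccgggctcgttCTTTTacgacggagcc
Runs of this kind stood in 4 of these 8 windows, at 1 of the annotated starts of Gas5, in Snhg16 and Snhg5, and upstream of 1 start of Snhg17. Of 32851 promoter windows of the same length, 53.0% held such a run, so its presence is a description of these letters alone.

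The members ranged from bright signals to signals near background. By mean over all arrays, the brightest members were Rpph1, the RNA of RNase P, which trims tRNA leaders, at 13.19, and Rmrp, the RNA of RNase MRP, which cuts pre-ribosomal RNA, at 13.08. They were followed by Gas5 (10351037) at 13.05, the probe set shared by Snord32a and its ribosomal protein host Rpl13a at 12.62, and Snord82, a box C/D RNA, at 12.54. Signals of different probe sets depend on the probes, so this order is of signals and not of molecules.

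Below 7 in all 10 groups lay 36 of the 117 probe sets, or 17 of the 95 distinct ones, against 41.9% of all named probe sets. Of the 36, 24 were Snord116 probe sets, box C/D RNAs of an imprinted cluster known for brain expression, whose group means ran from 3.63 to 4.65 and which held only 7 distinct sets of values. The other 12 included Scarna8, Snora30, both Snhg11 probe sets and Snord52. The members just inside the limit had highest group means of 6.50 (Scarna8), 6.61 (Snhg11), 6.72 (Snora30), 6.74 (Snord52) and 6.80 (Snhg11, probe set 10478073). Just outside it were Snora75 at 7.23, Snora41 at 7.29, Snord37 at 7.33, Snord53 at 7.51 and Snora69 at 7.53. At 7 or more in all groups were 62 probe sets, and 19 crossed the level between groups.

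Rny1, the gene of the Y1 RNA on chromosome 6, separated the clones more widely than any other member. It was near background in sAg1, and higher in CD8bm1 and in both IL13-negative clones. In the dormant state the arrays of sAg1 gave 4.02, 3.74 and 3.90 and those of sAg3 gave 5.38, 6.25 and 5.50, against 9.62, 9.72, 10.01 and 9.05 in clone 8uvmo-2 and 8.58, 8.66, 9.26 and 8.92 in clone 8uvmo-3. Dormant CD8bm1 gave 9.82, 10.29, 9.83 and 10.04. Every dormant IL13+ array thus lay below every dormant array of the other 3 clones, with no overlap.

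**Figure D1:**
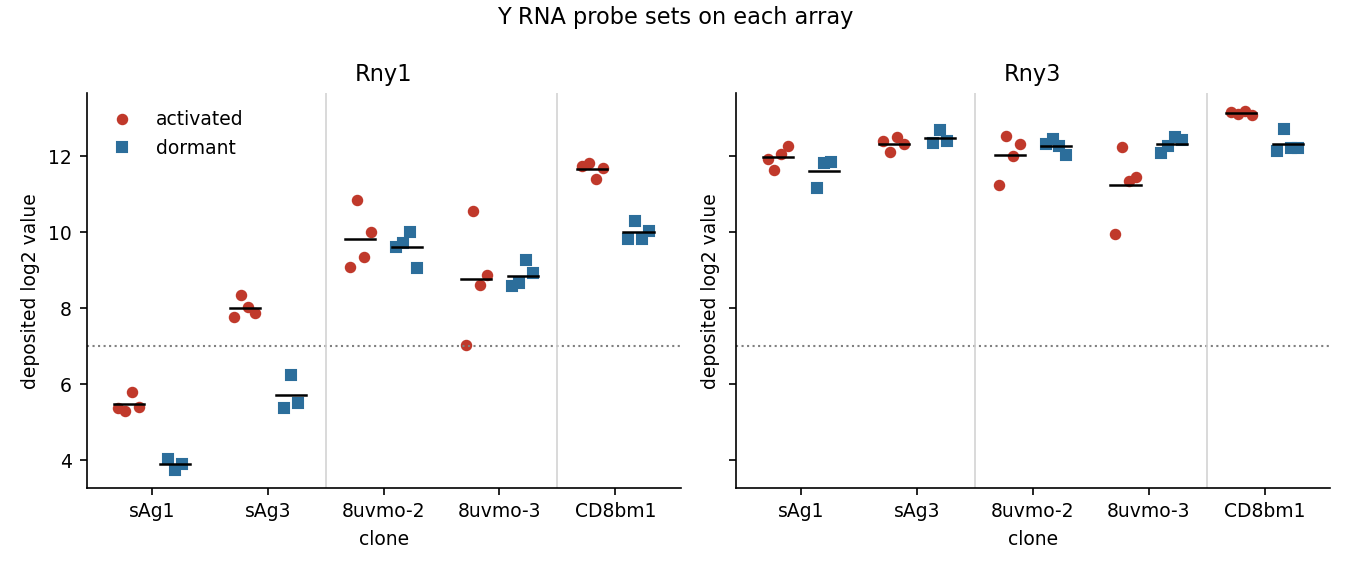
Deposited log2 signal of Rny1 and Rny3 on every array, by clone. Red circles are activated arrays and blue squares to their right are dormant arrays, horizontal bars are group means, and the dotted line marks the level of 7. Rny1 was lowest in sAg1, at 5.30 to 5.78 activated and 3.74 to 4.02 dormant, and highest in activated CD8bm1, at 11.39 to 11.81, while Rny3 stayed above 9.9 on every array.

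After activation Rny1 gave 5.38, 5.30, 5.78 and 5.39 in sAg1 and 7.76, 8.35, 8.02 and 7.86 in sAg3, against 9.08, 10.85, 9.35 and 10.01 in 8uvmo-2 and 7.04, 10.55, 8.61 and 8.87 in 8uvmo-3. Activated CD8bm1 gave 11.74, 11.81, 11.39 and 11.69. Activated IL13+ arrays overlapped with activated IL13-negative ones through the first array of 8uvmo-3, but not with activated CD8bm1.

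In limma fits over all named probe sets, with Benjamini-Hochberg adjustment, IL13+ minus IL13-negative differences in Rny1 were -4.43 ± 0.30 in dormant cells (SE, adjusted p = 1.06e-14) and -2.56 ± 0.27 in activated cells (adjusted p = 1.58e-09), or -2.55 without the first and second activated 8uvmo-3 arrays. Against CD8bm1 the IL13+ clones differed by -5.20 ± 0.35 in the dormant state (adjusted p = 1.44e-14) and by -4.93 ± 0.34 in the activated state (adjusted p = 2.25e-14). Because sAg1 and dormant sAg3 were below 7, the true ratio may be larger than these values. With 1 mean per clone as the replicate, Rny1 had a limma p of 0.00424 unadjusted and 0.688 adjusted between dormant IL13+ and IL13-negative clones. In activated cells these were 0.0521 and 0.99955. Against CD8bm1 they were 0.00493 and 0.321 dormant, and 0.0121 and 0.602 activated. The calls of Rny1 thus rest on arrays within clones. Cell type markers also moved between dormant IL13+ and IL13-negative clones. Past the limma adjusted p, 3 of 8 T cell genes were higher and 4 lower, and 2 of 5 macrophage genes higher and 1 lower. Among them were Cd2, a T cell adhesion receptor, at -2.90, and the macrophage genes Lyz2 at 1.79 and Cd68 at -1.09. In the activated comparison 3 T cell genes were higher and 2 lower, with Cd2 at -1.88, and 0 of 5 macrophage genes passed in either direction. Their part in the differences between clones was not tested. The 2 IL13+ clones also differed from each other, with means of 8.00 ± 0.26 in activated sAg3 and 5.46 ± 0.22 in activated sAg1 (SD, n = 4 each).

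Activation went with a change in Rny1 that differed by clone. On values centred on each array's median, activated minus dormant was 1.17 ± 0.42 in sAg1, 1.88 ± 0.42 in sAg3 and 1.25 ± 0.39 in CD8bm1 (SE), with limma adjusted p of 0.0167, 2.94e-04 and 0.00563. It was -0.17 ± 0.39 in 8uvmo-2 and -0.47 ± 0.39 in 8uvmo-3, with adjusted p of 0.703 and 0.286. Single-clone values and the difference between clone types are given centred only. A change as small as that in 8uvmo-2 can change sign with the scaling. All sAg1 arrays were below 7 in both states, so the change in sAg1 is one between low signals. The activation difference of IL13+ clones minus that of IL13-negative clones was 1.85 ± 0.41 (limma adjusted p = 8.78e-04), and 1.86 (adjusted p = 5.53e-06) without those 2 arrays of 8uvmo-3.

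Rny3, the gene of the Y3 RNA next to Rny1 by position among measured genes on chromosome 6, showed no such gap. Activated arrays gave 11.92, 11.64, 12.05 and 12.27 in sAg1, 12.39, 12.12, 12.51 and 12.31 in sAg3, 11.24, 12.53, 12.00 and 12.32 in clone 8uvmo-2, 9.95, 12.24, 11.36 and 11.46 in clone 8uvmo-3, and 13.16, 13.10, 13.18 and 13.09 in activated CD8bm1. Dormant arrays gave 11.16, 11.81 and 11.85 in sAg1, 12.34, 12.68 and 12.40 in sAg3, 12.31, 12.45, 12.27 and 12.02 in clone 8uvmo-2, 12.08, 12.27, 12.50 and 12.42 in clone 8uvmo-3, and 12.15, 12.71, 12.22 and 12.23 in dormant CD8bm1. Only activated CD8bm1 lay above all other activated arrays. The dormant IL13+ minus IL13-negative difference was -0.25 ± 0.20 (SE, limma adjusted p = 0.372), and the activated one was 0.51 ± 0.19 (adjusted p = 0.0364), or 0.43 (adjusted p = 0.0204) without the first and second activated 8uvmo-3 arrays. Activated IL13+ clones minus CD8bm1 gave -0.98 ± 0.23 (adjusted p = 9.59e-04), just short of the minimum difference of 1 used for calls.

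The neighbouring protein genes of the Y RNA cluster differed by smaller amounts in the dormant IL13+ minus IL13-negative comparison. Cul1, a ubiquitin ligase scaffold, differed by -0.36 (limma adjusted p = 1.70e-07) and Ezh2, a histone methyltransferase, by -0.24 (adjusted p = 0.308). Pdia4, an endoplasmic reticulum disulfide isomerase, differed by 0.04 (adjusted p = 0.655). In dormant IL13+ clones minus CD8bm1, Ezh2 differed by -1.42 (limma adjusted p = 8.43e-07), Cul1 by -0.96 (6.01e-16) and Pdia4 by -0.68 (1.24e-10). Of 4 measured Y RNA binding and decay genes, 3 were lower in dormant IL13+ than in dormant IL13-negative clones past the adjusted p and none was higher, where 18% of all probe sets were lower and 19.4% higher, and Ro60, the main Y RNA binding protein, differed by -0.74.

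Between IL13+ and IL13-negative clones, a member was called where the limma adjusted p was under 0.05, the difference was at least 1 and the clone means of both sides did not overlap. In dormant cells 4 members were called against 3.35% of all probe sets, Rny1 lower and Snord16a and both identical Snord118 probe sets higher. Snord16a, a box C/D RNA in an intron of the ribosomal protein gene Rpl4, gave 12.68, 12.25 and 12.25 in dormant sAg1 and 11.11, 11.14 and 10.62 in dormant sAg3, against 10.12, 10.14, 9.75 and 9.52 in dormant 8uvmo-2 and 10.67, 10.72, 10.47 and 10.25 in dormant 8uvmo-3. sAg1 stood apart above all others, while 1 dormant sAg3 array lay within the range of 8uvmo-3. The difference was 1.47 ± 0.11 (SE, adjusted p = 3.44e-13), while that of its host Rpl4 was 0.10.

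Snord118, a box C/D RNA needed in vertebrates for maturation of large-subunit ribosomal RNA, gave 5.84, 6.06 and 6.0 in dormant sAg1 and 6.96, 6.72 and 5.81 in dormant sAg3, against 5.08, 5.18, 5.87 and 5.24 in dormant 8uvmo-2 and 5.09, 5.11, 5.26 and 4.97 in dormant 8uvmo-3. All of these arrays were below 7 and the sides overlapped through 1 array of 8uvmo-2. The difference of 1.01 ± 0.23 (limma adjusted p = 4.89e-04) was at the minimum for a call and fell under it when any of 8 single dormant arrays was left out. By adjusted p alone, 36 of the 95 distinct members were higher and 6 lower in dormant IL13+ clones, where 19.4% and 18% of all probe sets were. Among the 29 distinct H/ACA probe sets 18 were higher and 0 lower. This count sets no condition on the clones, and 0 of the 29 were called. The 2 IL13-negative clones were not always alike. For Snora62, dormant 8uvmo-2 ran from 6.64 to 6.86 and dormant 8uvmo-3 from 7.35 to 7.64, against 7.36 to 7.68 in IL13+ clones. For Snora3 (10556206) these ranges were 7.69 to 7.93, 8.06 to 8.27 and 8.27 to 8.78.

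In activated cells 2 members were called between IL13+ and IL13-negative clones, against 1.75% of all probe sets, Rny1 lower and Scarna13 higher. Scarna13, a Cajal body RNA, gave 10.23, 10.13, 10.28 and 10.35 in activated sAg1 and 10.31, 10.69, 10.54 and 10.57 in activated sAg3, against 9.45, 9.41, 9.87 and 9.34 in activated 8uvmo-2 and 8.77, 9.03, 9.60 and 9.36 in activated 8uvmo-3. These sides did not overlap. The difference was 1.03 ± 0.12 (SE, limma adjusted p = 4.28e-09), and it was 0.89 without the first and the second activated 8uvmo-3 array, which ended the call. By adjusted p, 17 distinct members were higher and 9 lower, against 15.4% and 15.3% of all probe sets.

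**Figure D2:**
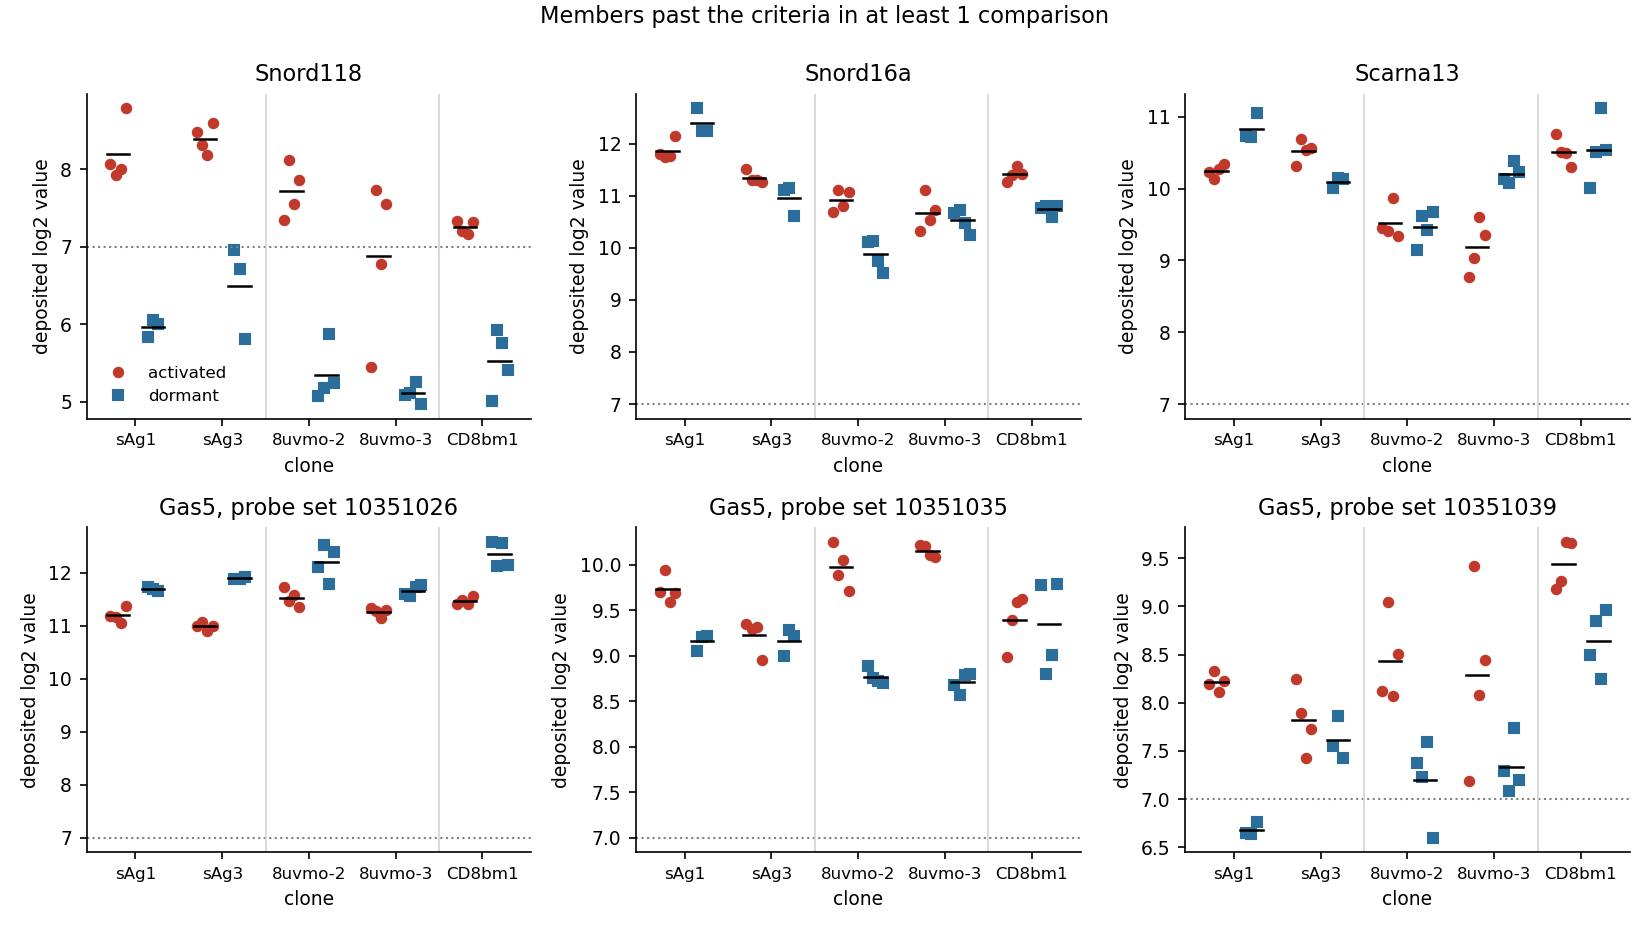
Deposited log2 signal per array for Snord118, Snord16a, Scarna13 and 3 of the 4 Gas5 probe sets, by clone. Red circles are activated arrays and blue squares to their right are dormant arrays, bars are group means and the dotted line marks 7. Snord118 was higher in activated than in dormant arrays of each clone, at 5.45 to 8.79 against 4.97 to 6.96, and Gas5 (10351026) was lower, at 10.89 to 11.72 against 11.56 to 12.58.

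Against the alloreactive clone CD8bm1, 4 members were called in dormant IL13+ clones, with 7.26% of all probe sets called. Besides Rny1, Gas5 (10351039) was lower by 1.49 ± 0.25 on the log2 scale (SE, limma adjusted p = 6.43e-06), with arrays from 6.64 to 7.86 in IL13+ clones and 8.50, 8.85, 8.25 and 8.96 in CD8bm1. Snord35b, a box C/D RNA, ran from 8.75 to 9.25 in dormant IL13+ clones against 7.43 to 8.34 in dormant CD8bm1, a difference of 1.03 ± 0.15 (adjusted p = 4.94e-07). The probe set shared by Snora28 and the translation factor gene Eif5 ran from 7.68 to 8.21 against 7.13, 6.68, 7.21 and 6.78, a difference of 1.01 ± 0.20 (adjusted p = 5.26e-05). None of these 3 overlapped between the groups, and how many of all probe sets were so apart was not counted. By adjusted p, 18 distinct members were higher and 10 lower, against 20.9% and 20.2% of all.

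In activated cells 5 members were called between IL13+ clones and CD8bm1, against 3.67% of all probe sets. Gas5 (10351039) was again lower, by 1.42 on the log2 scale (limma adjusted p = 8.95e-06), with arrays from 7.43 to 8.33 in IL13+ clones and 9.18, 9.26, 9.67 and 9.66 in CD8bm1. Snord118 was higher by 1.04 ± 0.26 (SE, adjusted p = 0.00163), with 8.07, 7.93, 8.01 and 8.79 in sAg1 and 8.48, 8.31, 8.19 and 8.60 in sAg3, against 7.34, 7.21, 7.16 and 7.32 in CD8bm1. The probe set shared by Mir1291 and Snora34 ran from 6.30 to 6.83 in IL13+ clones, near background, and from 7.50 to 8.15 in CD8bm1, and was lower by 1.16 (adjusted p = 0.00303). Rny1 was the remaining one. By adjusted p, 11 distinct members were higher and 15 lower, against 15.6% and 13.9% of all.

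The clone means were also compared over the 5 clones at once. By limma's F test with a range of clone means of at least 1, 32 of 117 members passed in dormant cells, where 20.7% of all probe sets did. In activated cells 18 of 117 passed, against 13.2% of all. Identical probe sets were counted each time here. The median range of clone means was 0.51 for members in activated cells and 0.77 in dormant cells, against 0.31 and 0.38 for all probe sets.

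Activation was read under 3 scalings, since array medians were 7.01 to 7.09 in activated and 6.58 to 6.70 in dormant arrays. Centring on array medians moved the median difference of all probe sets to -0.05, against 0.35 as deposited and 0.02 after quantile normalization. The shift depended on signal. For probe sets with a mean of 9 or more the median was -0.45 centred, -0.04 deposited and -0.01 quantile, and for those between 5 and 6 it was 0.17, 0.57 and 0.02. Directions over the 5 clones are therefore given for called members under all 3. Changes in single clones, and their differences between clone types, are on centred values.

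On centred values 6 members were called as changed in the same direction in all 5 clones, against 6.62% of all probe sets, with 3 higher (1.06% of all) and 3 lower (5.56% of all). Counting identical probe sets once, these were Snord118 and Snord52 higher and Scarna17 and Gas5 (10351026) lower. As deposited, 8 were higher and 0 lower, against 4.56% and 1.64% of all, and after quantile normalization 6 were higher and 0 lower, against 1.84% and 2.65%. The larger counts added Snora73a and both Snord58b probe sets, and in the deposited values also Snora74a and 1 Snhg17 probe set. Gas5 and Scarna17 kept their direction but fell short of the minimum difference in both.

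**Figure D3:**
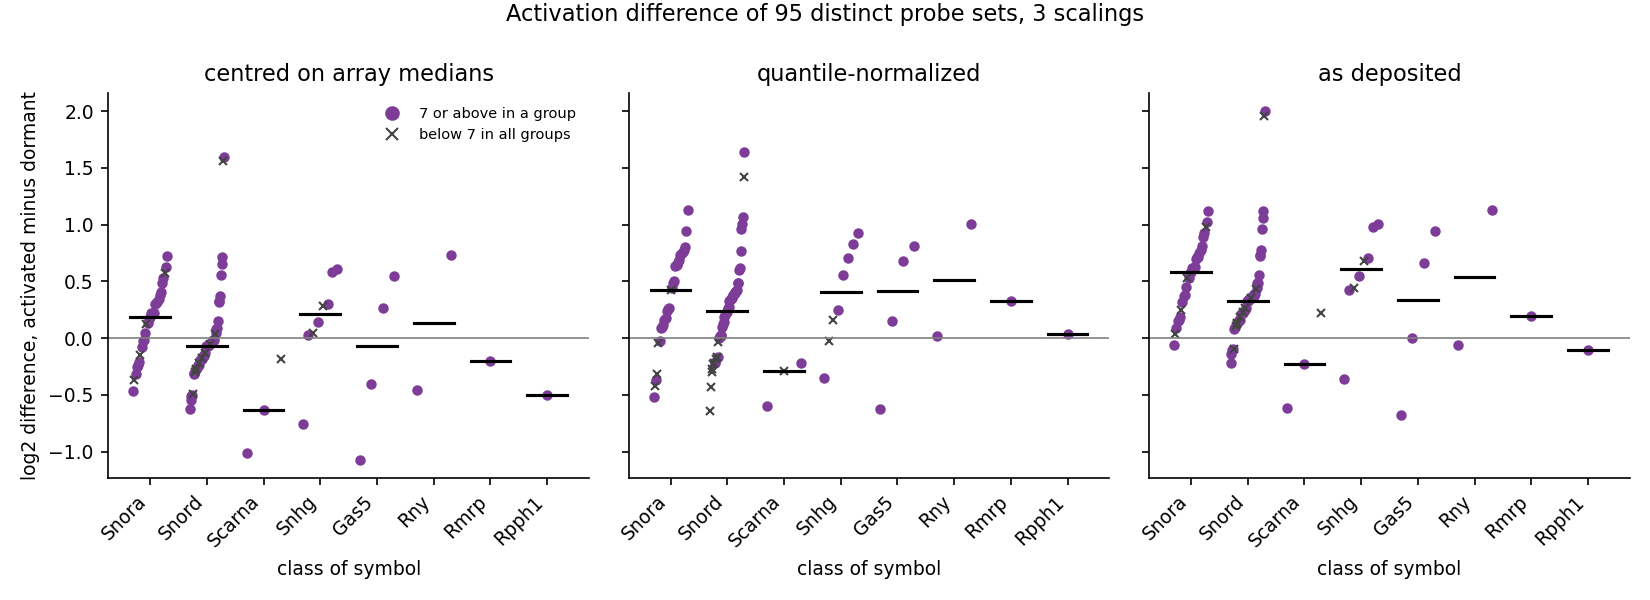
Activated minus dormant log2 difference of each of the 95 distinct member probe sets, by class, in 3 panels for values centred on array medians, quantile normalized and as deposited. Each mark is 1 probe set, crosses are below 7 in all groups, and bars are class medians. The H/ACA median was 0.18 centred and 0.42 quantile, the C/D median -0.07 and 0.24, and Snord118 and Snord52 stood highest.

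Snord118 gave 8.07, 7.93, 8.01 and 8.79 in activated sAg1 and 5.84, 6.06 and 6.0 in dormant sAg1. Over all clones it ran from 5.45 with a median of 7.79 to 8.79 in activated arrays, against 4.97, 5.58 and 6.96 in dormant arrays. The states overlapped through activated 8uvmo-3, where array 1 at 5.45 and array 3 at 6.78 lay below the highest dormant value of 6.96. The difference was 1.60 ± 0.14 centred (SE, limma adjusted p = 1.47e-12), 2.00 deposited and 1.65 quantile, and 1.66 centred without the first and second activated 8uvmo-3 arrays. Within clones, Snord118 (10377429) differed by 1.83 in sAg1, 1.49 in sAg3, 1.98 in clone 8uvmo-2, 1.39 in clone 8uvmo-3 and 1.32 in clone CD8bm1 on centred values.

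Snord52, a box C/D RNA, ran from 5.68 with a median of 6.41 to 6.96 in activated arrays, against 4.11, 4.37 and 5.20 in dormant arrays. These deposited values did not overlap, but neither did the array medians of the states. How many of all probe sets were so apart was not counted. All values of Snord52 were below 7, so its difference of 1.56 ± 0.06 centred, 1.96 deposited and 1.42 quantile is one between low signals. Scarna17, a Cajal body RNA, gave 10.91, 10.90, 10.91 and 11.13 in activated sAg1, against 11.90, 12.09 and 12.15 in dormant sAg1. The difference over clones was -1.01 ± 0.06 centred (SE, limma adjusted p = 9.12e-18), -0.61 deposited and -0.59 quantile. Its 2 probe sets, with identical values, dropped under the minimum when any of several single arrays was left out. Without the first and second activated 8uvmo-3 arrays the centred differences were -1.02 for Scarna17 and 1.57 for Snord52.

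Gas5, the growth arrest host gene whose introns hold a series of box C/D RNAs, had 4 probe sets that did not move together. Gas5 (10351026) ran from 10.89 with a median of 11.31 to 11.72 in activated arrays, against 11.56, 11.88 and 12.58 in dormant arrays. Within each clone the activated arrays lay below the dormant ones, and the difference was -1.07 ± 0.05 centred (SE, limma adjusted p = 1.33e-20), -0.67 deposited and -0.63 quantile, and -1.09 centred without the first and second activated 8uvmo-3 arrays. Gas5 (10351037), the brightest, moved little, from 12.78 to 13.14 in activated and 12.66 to 13.29 in dormant arrays, with -0.40 centred, -0.00 deposited and 0.15 quantile.

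Gas5 (10351035) and Gas5 (10351039) went the other way, by 0.27 and 0.55 centred, 0.67 and 0.95 deposited, and 0.68 and 0.82 quantile. For Gas5 (10351035), 8uvmo-2 gave 10.25, 9.88, 10.05 and 9.71 activated against 8.89, 8.75, 8.72 and 8.70 dormant, and 8uvmo-3 gave 10.22, 10.20, 10.10 and 10.08 against 8.68, 8.57, 8.79 and 8.80, with no overlap in either. By contrast sAg3 gave 9.35, 9.29, 9.31 and 8.95 activated against 8.99, 9.28 and 9.22 dormant, which overlap. These are deposited values, whose array medians were higher in activated arrays. The activation difference of IL13+ clones minus that of IL13-negative clones was -1.02 ± 0.17 (SE, limma adjusted p = 1.83e-05), and -0.99 without the first and second activated 8uvmo-3 arrays, which ended the call. The files do not say which exon or intron each of the 4 probe sets covers.

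Between the activation differences of IL13+ and IL13-negative clones, 2 members were called, Gas5 (10351035) and Rny1, against 1.91% of all probe sets. By adjusted p alone, 4 distinct members were higher and 15 lower, against 9.73% and 10.7% of all. Of the 29 distinct H/ACA probe sets, 0 were higher and 10 lower.

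Among the other spliced hosts, Snhg17 had 3 probe sets that were higher in activated cells under every scaling, by 0.61, 0.30 and 0.58 centred, 1.01, 0.71 and 0.98 deposited and 0.83, 0.71 and 0.93 quantile. Snhg17 (10489235) ran from 7.71 to 8.60 activated against 6.76 to 7.47 dormant. Snhg17 (10489237) ran from 9.16 to 9.76 against 7.99 to 9.12, and Snhg17 (10489239) from 8.26 to 9.27 against 7.18 to 8.15. On these deposited values none of the 3 overlapped between states, Snhg17 (10489237) only narrowly. The array medians did not overlap between states either, and how many of all probe sets were so apart was not counted. Snhg5 was lower, with 8.93 to 9.61 activated against 9.29 to 9.97 dormant and differences of -0.76 centred, -0.36 deposited and -0.35 quantile. Snhg15 differed by 0.14, 0.55 and 0.56, and Snhg16 by 0.03, 0.43 and 0.25 on the same scales. Both Snhg11 probe sets were below 7 in all groups.

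Among abundant small RNAs, Snora73a, a box H/ACA RNA, ran from 10.00 with a median of 10.53 to 11.29 activated, against 8.92, 9.41 and 10.15 dormant, overlapping in a few arrays. It differed by 0.72 centred, 1.12 deposited and 1.13 quantile. Rmrp differed by -0.20 centred, 0.20 deposited and 0.33 quantile, with limma adjusted p of 0.0935, 0.0984 and 0.0100, and Rpph1 by -0.50, -0.10 and 0.04, so their direction depended on the scaling. Rmrp ran from 11.39 to 13.75 in activated arrays against 12.55 to 13.40 in dormant ones, and Rpph1 from 11.46 to 13.47 against 12.97 to 13.70.

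Under all 3 scalings, 30 of 95 distinct members were higher past the adjusted p and 5 lower, that is 31.6% and 5.26%, against 29.5% and 21.1% of all probe sets. By class, 14 of 29 H/ACA probe sets were higher and 0 lower, 8 of 47 C/D probe sets higher and 1 lower, 5 of 8 Snhg probe sets higher and 1 lower, and 2 of 3 scaRNA probe sets lower. Medians over the 95 were -0.04 centred and 0.26 quantile, against -0.05 and 0.02 for all probe sets.

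Small RNAs nested in a measured host were set beside that host by their changes on activation. Hosts were assigned by position in the GRCm38.p6 gene table, where 26 small RNAs lay within 23 measured genes. The host change was -0.63 for Rpsa, -0.72 for Rpl27a and -0.49 for Eef1b2 on centred values, genes of a ribosomal protein, a ribosomal protein and an elongation factor, while their small RNAs Snora62, Snora3 and Snora41 changed by 0.53, 0.30 and 0.49. The small RNA exceeded the host by 1.16 for Snora62 (95% interval 1.0 to 1.32), by 1.01 for Snora3 (0.90 to 1.13) and by 0.98 for Snora41 (0.83 to 1.12). After quantile normalization these differences were 0.85, 0.83 and 0.38, with hosts at -0.07, -0.16 and 0.06 and small RNAs at 0.78, 0.67 and 0.45. The size of the host changes thus depended on the scaling, and the centred median of all probe sets at 9 or more was -0.45. Snora41 had a mean of 6.62, near background, against 13.10 for Eef1b2. The intervals measure spread between arrays and not between scalings.

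**Figure D4:**
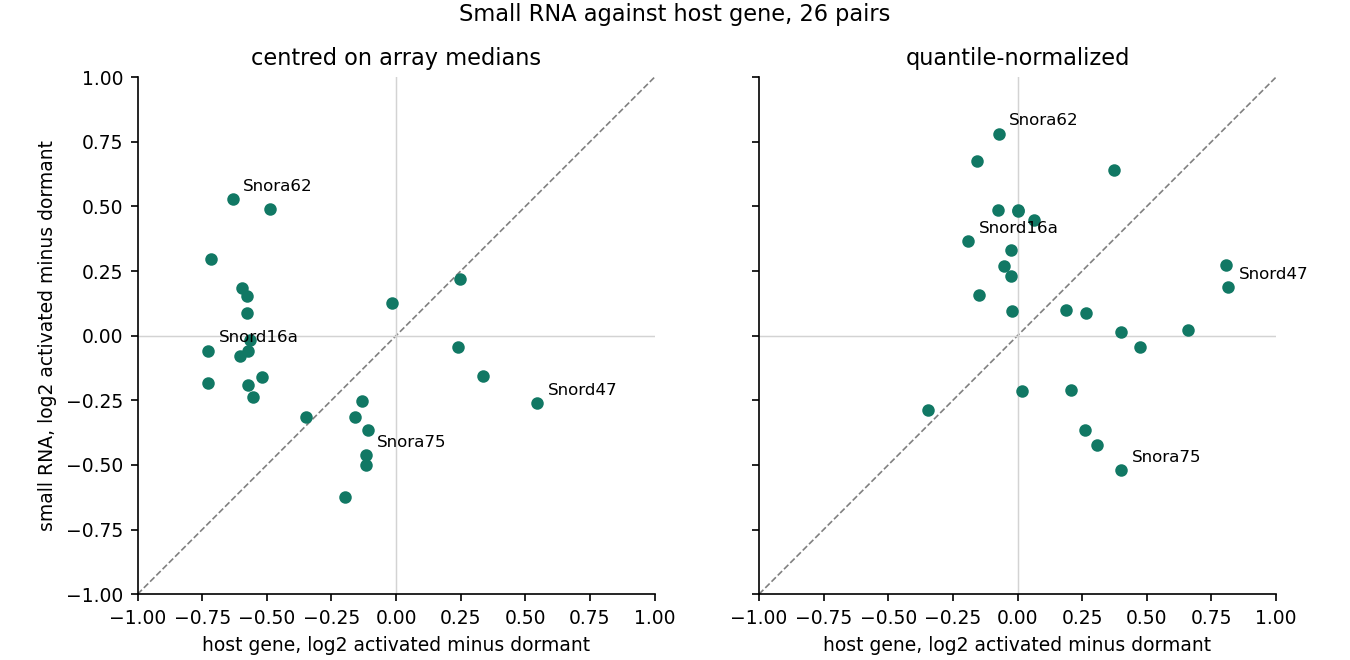
Activated minus dormant log2 difference of 26 small RNAs (vertical axis) against that of the host gene (horizontal axis), in panels for centred and quantile values. Each point is 1 pair and the dashed line is equality. On centred values 14 pairs lay above the line with an interval clear of 0, 8 below and 4 had an interval holding 0; after quantile normalization the counts were 12, 10 and 4.

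The reverse order was seen for Snord47, a box C/D RNA in Gas5, at -0.26 against 0.55 for Gas5 (10351039), the probe set nearest to it. The difference was -0.81 (95% interval -1.0 to -0.61), and -0.63 after quantile normalization. This order depended on the probe set taken for Gas5. On centred values Snord47 also lay below Gas5 (10351035) at 0.27, but above Gas5 (10351026) at -1.07 and Gas5 (10351037) at -0.40. Snord57, in the gene of the box C/D core protein Nop56, changed by -0.15 against 0.34 for Nop56, a difference of -0.49 centred and -0.54 quantile. Over the 26 pairs the median of small RNA minus host was 0.34 centred and 0.09 quantile, so the tilt towards the small RNA depended on the scaling.

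In 3 hosts a pair of small RNAs was measured. In Ncl, the gene of nucleolin, which changed by -0.12, Snora75 changed by -0.46 and Snord82 by -0.50. In Rpl23a, which changed by -0.58, Snord42a changed by 0.09 and Snord42b by 0.15. In Rps3, which changed by -0.57, Snord15a changed by -0.06 and Snord15b by -0.19. Rpl23a and Rps3 encode ribosomal proteins and lay below both of their small RNAs, whereas Ncl lay above both of its own. These values are centred. After quantile normalization the differences from the host were -0.92 and -0.39 in Ncl, 0.48 and 0.48 in Rpl23a, and 0.36 and 0.26 in Rps3. The hosts Ncl, Rpl23a and Rps3 themselves then changed by 0.40, 0.00 and -0.03.

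Within groups, small RNA and host were weakly related in most pairs. Across the 26 pairs, Pearson correlation of deviations from the group means over the 38 arrays had a median of 0.11 and ran from -0.51 to 0.73, with 1 pair above 0.5, Snord47 with its Gas5 probe set. These arrays share their libraries, and the values are given as a description.

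Arrays of the same group lay further apart in small RNAs than in all probe sets of the same signal. For means of 9 to 11 the median SD within groups was 0.29 over 17 small RNAs against 0.12 over all probe sets, and for means of 11 or more it was 0.23 over 11 small RNAs against 0.09. The widest group was activated 8uvmo-3, with a median SD of 0.46 against 0.10 over all. Deviations of single arrays were taken from the group median of each probe set. Its first array lay 0.49 below that median, in the median over 50 small RNAs. It was lowest for 38 of them, where 30.2% of all probe sets were lowest. Its second array lay 0.44 above and was highest for 42 of them, where 22.8% of all were highest. The first array of activated CD8bm1, at -0.17, was lowest for 38, where 30.7% of all were. In the dormant state the second array of sAg3, at 0.19, was highest for 42, where 27.4% of all were, and the first array of sAg1, at -0.20, was lowest for 37, where 46.8% of all were. Without that sAg3 array the dormant calls of Snord118 against IL13-negative clones and of Snord35b against CD8bm1 were lost, and without that sAg1 array no call in these 2 comparisons changed. On the first and second activated 8uvmo-3 arrays the 10 Gas5 and Snhg probe sets deviated by -0.16 and 0.08, and probe sets at 7 or more by 0.01 and -0.01.

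**Figure D5:**
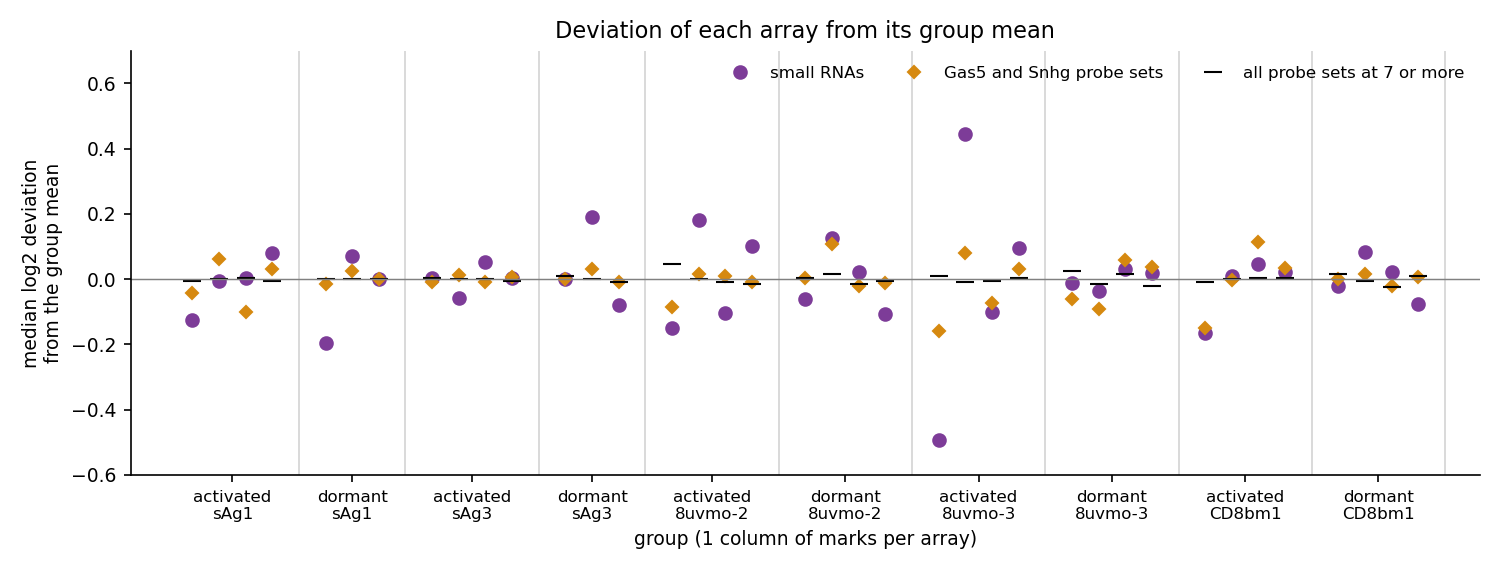
Median deviation of each array from its group median, in log2 units, with activated groups to the left of dormant ones for each clone. The title and axis of the figure name the group mean, but the deviations are from the group median. Purple points are the medians over 50 small RNAs, orange points over 10 Gas5 and Snhg probe sets, and black dashes over all probe sets at 7 or more. The first and second arrays of activated 8uvmo-3 stood at -0.49 and 0.44 for small RNAs and near 0 for all probe sets.

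This touches the values above that rest on activated 8uvmo-3. Rmrp gave 11.39, 13.75, 12.85 and 13.11 there, and Rpph1 gave 11.46, 13.44, 12.89 and 13.11, both lowest on the first array. Rny1 and Rny3 were lowest on that same array, at 7.04 and 9.95. Without the first and second array, activated minus dormant on centred values was -0.17 for Rmrp and -0.45 for Rpph1, against -0.20 and -0.50 with them. Why these arrays stand apart was not tested.

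Genes of the proteins in these particles were counted by limma adjusted p under 0.05. Of all probe sets, 37.3% rose and 46.8% fell on centred values, 68.4% and 22% as deposited, and 42% and 38.2% after quantile normalization. All 5 measured box C/D core genes rose in activated cells under each scaling, led on centred values by Rrp9, a component of the U3 particle, at 1.38, and Fbl, the methyltransferase fibrillarin, at 0.41. Of 4 box H/ACA core genes, 3 rose centred and all 4 rose under the other scalings, with Nhp2 at 0.76, Gar1 at 0.66 and Dkc1, the pseudouridine synthase dyskerin, at 0.54. Of 11 RNase P and MRP protein genes, 7 rose and 3 fell centred, while 10 rose and 0 fell as deposited, with Pop1, a large shared subunit, at 0.71.

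Of 13 assembly and trafficking genes, 5 rose and 7 fell on centred values, 9 and 2 as deposited and 6 and 2 after quantile normalization. Nolc1, a nucleolar chaperone, differed by 0.70 centred and 1.10 deposited, and Phax, an export adaptor of small nuclear RNA, by -0.72 and -0.32. All 4 Y RNA binding and decay genes fell on centred values, 2 as deposited and 3 after quantile normalization, with Parn, a deadenylase, at -0.54 centred, -0.14 deposited and -0.17 quantile, and Ro60 at -0.40, 0.00 and -0.19. Of 19 RNA polymerase III genes, 5 rose and 10 fell centred but 11 rose and 6 fell under each of the other scalings. Maf1, the repressor of that polymerase, differed by -1.23 centred and -0.82 deposited, and its subunit gene Polr3d by 1.03 and 1.43. Of 7 genes of nonsense-mediated decay, which degrades spliced Gas5, 2 rose and 4 fell centred, while 4 rose and 3 fell under each of the other scalings, with the endonuclease gene Smg6 at -0.89 centred and -0.49 deposited.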

How the data were processed

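Labelled RNA of 38 samples was measured on 38 arrays. Per the labels' protocols, RNA was extracted with QIAGEN RNeasy and 100 ng of total RNA was labelled with the Affymetrix WT Plus kit. The authors deposited log2 signals, and the submitters' processing notes name Partek and RMA, with no version or order. The annotation build is not given in the sources used here. Values were used as deposited between clones, and centred on each array's median for activation, with deposited and quantile-normalized values beside them. limma 3.58.1 in R 4.3.3 fitted 1 mean per clone and state, with a mean trend and Benjamini-Hochberg adjustment over 23410 named probe sets. Calls needed an adjusted p under 0.05, a difference of at least 1 and clones on the same side. The fit was tested on simulated data.

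A host was the shortest gene in the GRCm38.p6 table whose span holds the small RNA. That table gives no strand, so orientation was not checked, although the plan asked for the same strand. The host probe set was the nearest by number. Of 117 members 76 matched the table. Replicate numbers were not used to pair samples in the main fits. Over 18 pairs of same-numbered arrays, correlations of deviations ran from -0.24 to 0.27, with 7 above 0.1. In 8uvmo-2 they ran from 0.11 to 0.24. Arrays with different numbers were not compared, so these values cannot settle whether the numbers pair samples. The rule named Gas5, Rmrp, Rpph1, all Rny and Snhg members, up to 6 called members per direction, small RNAs of the hosts holding most of them (3 hosts with a pair, others tied), the 5 brightest, members next to 7 and up to 4 genes per protein list. Snora73a, Snora62, Snora3, Snora41, Snord57 and Snord58b were chosen after their values were seen. The members and lists were chosen with earlier results of these data known. The number of arrays and, between phenotypes, of clones limits the precision. Alternatives covered scaling, filters, array weights, clone blocks, clone means and left-out arrays.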

Additional observations from a re-analysis of the deposited data

Results flagged for a closer look

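For 22 named probe sets in the 8 groups of 4 arrays, 1 array stood apart from its group in 15 of 176 tests, where chance gives about 1 in 20 by Dixon's criterion. Gas5 (10351035) was at 8.95 on activated sAg3 array 4, with the others at 9.29 to 9.35. Snord118 was at 8.79 on activated sAg1 array 4 (others 7.93 to 8.07), and on that same array Scarna17 was at 11.13 (10.90 to 10.91) and Snord16a at 12.14 (11.75 to 11.81). Scarna17 was at 10.85 on activated CD8bm1 array 1 (11.14 to 11.18), where Snhg16 was at 7.38 (7.61 to 7.64). Snhg16 was also at 7.50 on activated 8uvmo-2 array 4 (7.75 to 7.80). Snhg17 (10489237) was at 9.38 on activated 8uvmo-3 array 3 (9.52 to 9.53) and at 9.59 on activated CD8bm1 array 3 (9.30 to 9.31). Snord16a was at 11.52 on activated sAg3 array 1 (11.27 to 11.30). Snhg5 was at 9.0 on activated sAg3 array 2 (8.93 to 8.94), where Rpph1 was at 13.15 (all others 13.27), and at 9.57 on activated 8uvmo-2 array 1 (8.94 to 9.04). In dormant cells Rmrp was at 12.55 on 8uvmo-2 array 4 (12.87 to 12.92) and Rny3 at 12.71 on CD8bm1 array 2 (12.15 to 12.23).

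The activation difference of IL13+ clones minus that of IL13-negative clones passed limma's test for Rny1, at 1.85, and for Gas5 (10351035), at -1.02. With 1 value per clone neither was called.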

How the results depend on the processing

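Member counts below follow one order of comparisons: activated minus dormant, IL13+ minus IL13-negative dormant and then activated, IL13+ minus CD8bm1 dormant and then activated, and the difference of activation effects. They were 6, 4, 2, 4, 5 and 2 as reported, and the same with a replicate block. Without a minimum difference they were 52, 42, 23, 26, 27 and 12. The share of all probe sets at that setting is not given here, so these counts show nothing particular to the members. By limma adjusted p alone, 37.3% of all probe sets were higher and 46.8% lower in the first comparison, and 19.4% and 18% in the second. Leaving out 1 array at a time gave ranges of 4 to 6, 2 to 4, 1 to 4, 2 to 6, 4 to 6 and 1 to 2, while members below 7 in all groups stayed at 36 and the pair median at 0.29 to 0.36. With clone means as replicates, limma called 0 members in the last 5 comparisons, and 33, 7, 29, 7 and 12 of 117 had an unadjusted p under 0.05, against 5.09%, 3.73%, 8.12%, 5.14% and 4.81% of all probe sets.

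In the dormant IL13+ minus IL13-negative comparison, quantile normalization gave 2 and so did leaving out dormant sAg1 array 2 or 3, sAg3 array 1 or 2, 8uvmo-2 array 1 or 4 or 8uvmo-3 array 4, with Snord118 lost each time. In activated cells, centring gave 4 and quantile normalization 4, as did leaving out activated sAg1 array 1, 2 or 3, sAg3 array 2 or 3, 8uvmo-2 array 2 or 4 or 8uvmo-3 array 2 or 4, with Snord118 added. There, 1 remained without 8uvmo-3 array 1, or without its arrays 1 and 2. Against dormant CD8bm1, 2 remained without dormant sAg1 array 2. For the difference of effects, 1 remained, with Gas5 (10351035) lost, under array weights, without activated 8uvmo-3 arrays 1 and 2, without dormant 8uvmo-2 arrays 2 and 4, or without dormant sAg3 array 2, dormant 8uvmo-3 array 2, activated sAg3 array 4 or activated 8uvmo-2 array 1. Counting identical probe sets once left 17 below 7. The causes were not tested. The activation alternatives without those arrays or with 1 clone left out were chosen after seeing the data.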
